A study of Mus musculus with 14 samples.

Results

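The sites described here are the narrowest entries of a deposited list of H3K27me3 sites, those exactly 200 bp wide on chromosomes 1 to 19. They were selected on their width alone, as the difference between the deposited end and start. There were 18032 of them among 144903 sites on these chromosomes (12.4%, Wilson 95% interval 12.3 to 12.6%), and the whole list held 153983 sites. The list came from ChIP-seq in iMEF cells, immortalised mouse embryo fibroblasts in which exon 4 of both endogenous Ash2l loci had been excised with 4-hydroxytamoxifen and which lived on a lentiviral FKBP-HA2-ASH2L, a human ASH2L fused to a tag that the PROTAC dTAG-13 marks for degradation. Libraries of H3K27me3 were made from untreated cells and after 30 min, 2 h, 4 h, 8 h and 16 h of dTAG, 2 in each group, and 1 input library each came from untreated cells and from cells treated for 16 h. All groups carried the deletion and the fusion protein. The study names the clone NG3 for its histone-mark ChIP-seq, which limits what the cells can stand for. The list is 1 union over all samples with no value per library, so it gave no depth, no replicates and no comparison between times. The intervals printed with shares reflect only how many sites were counted, and neighbouring sites are not independent.

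H3K27me3 is placed by the Polycomb repressive complex PRC2, whose EZH1 or EZH2 subunit methylates lysine 27 of histone H3. The mark is known for broad domains over silent developmental genes, often at CpG islands, which are stretches dense in CG dinucleotides, and for lower levels spread over much of the silent genome. A peak caller for broad marks joins neighbouring stretches in which reads exceed the background, and it can hold to a minimum length. The widths, neighbours, bases and genes of the 200 bp sites are described below.

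The sequences of a few of them show what these sites were made of. The 3 with the greatest distance to any other site are printed first, because they had no domain near them, followed by the site next to the widest H3K27me3 site that any of them adjoined, which was chosen after its values were seen. All are given on the plus strand of GRCm38.p6 as RefSeq holds it, in lower case, with CG dinucleotides in capitals. They held 3, 2, 3 and 0 CG dinucleotides.
Isolated site 1, chr16:81149618-81149817: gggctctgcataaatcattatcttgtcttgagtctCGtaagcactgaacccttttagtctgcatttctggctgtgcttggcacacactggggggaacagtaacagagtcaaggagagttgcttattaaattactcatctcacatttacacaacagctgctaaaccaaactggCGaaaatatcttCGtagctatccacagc
Isolated site 2, chr7:9346674-9346873: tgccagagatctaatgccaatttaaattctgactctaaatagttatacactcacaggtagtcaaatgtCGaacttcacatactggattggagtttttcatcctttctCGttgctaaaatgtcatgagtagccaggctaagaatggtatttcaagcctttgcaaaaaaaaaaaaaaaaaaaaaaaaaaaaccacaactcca
Isolated site 3, chr7:20997172-20997371: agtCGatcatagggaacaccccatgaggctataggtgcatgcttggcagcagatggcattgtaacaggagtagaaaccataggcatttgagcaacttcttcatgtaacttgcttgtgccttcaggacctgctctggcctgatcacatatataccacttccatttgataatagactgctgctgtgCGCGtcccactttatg
Site beside the widest domain, chr5:139690107-139690306: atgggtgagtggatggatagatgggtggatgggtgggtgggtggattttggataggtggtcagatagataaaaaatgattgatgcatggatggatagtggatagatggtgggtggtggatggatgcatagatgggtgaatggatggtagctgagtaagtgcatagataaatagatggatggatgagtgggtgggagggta

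The most isolated site lay 1762 kb from the nearest other site, was intergenic and lay 51.0 kb from Ncam2, a neural cell adhesion gene. The next lay 1134 kb from any other site, in an intron of a gene not annotated as protein-coding, with GC content of 33.5%. The third lay 959 kb from any other site, 14.3 kb from the vomeronasal receptor gene Vmn1r119, and all of its bases were masked as repeats. By contrast, the site beside the widest domain was 136 bp from a site of 37319 bp and 16.5 kb from Micall2, with 56.5% of its bases masked.

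A second set shows members that carried many CG dinucleotides over an annotated start of a protein-coding transcript. Of the 10 such members with the most CG dinucleotides for their base content, these 3 held no annotated untranslated base, and all 3 were centred in coding sequence.
Plch1 site, chr3:63701956-63702155: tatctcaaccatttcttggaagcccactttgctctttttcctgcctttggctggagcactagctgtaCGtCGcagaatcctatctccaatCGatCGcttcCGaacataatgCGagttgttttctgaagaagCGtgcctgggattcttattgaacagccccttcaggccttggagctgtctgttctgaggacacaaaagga
Pbx2 site, chr17:34592576-34592775: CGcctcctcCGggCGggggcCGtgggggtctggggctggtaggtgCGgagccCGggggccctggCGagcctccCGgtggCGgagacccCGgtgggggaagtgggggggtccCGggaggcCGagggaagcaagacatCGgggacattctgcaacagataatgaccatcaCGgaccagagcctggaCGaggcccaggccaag
Epha7 site, chr4:28871720-28871919: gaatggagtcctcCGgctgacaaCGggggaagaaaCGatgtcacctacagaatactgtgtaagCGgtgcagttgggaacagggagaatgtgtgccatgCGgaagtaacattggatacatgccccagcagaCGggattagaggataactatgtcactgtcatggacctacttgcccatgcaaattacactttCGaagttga

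The last sequence is that of the member with the most matches to a GA repeat, with the repeat runs in capitals. It lay in an intron of Usp13, a ubiquitin protease gene.
GA repeat site, chr3:32842729-32842928: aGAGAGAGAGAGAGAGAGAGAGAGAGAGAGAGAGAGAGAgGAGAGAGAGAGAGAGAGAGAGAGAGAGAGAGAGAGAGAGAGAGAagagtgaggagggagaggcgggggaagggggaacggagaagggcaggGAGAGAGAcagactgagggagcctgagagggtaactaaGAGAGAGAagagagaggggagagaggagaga

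The width of 200 bp was a floor of the list. No site on the autosomes was narrower, 18032 had exactly this width, and 427 were 1 bp wider. The next 10 widths together held 3243 sites, far fewer than 200 bp alone. The 200 bp sites covered 3.61 Mb, or 2.31% of the 156 Mb covered by all autosomal sites, and averaged 7.32 per Mb. Above the floor the counts fell slowly with width except for a second pile at 363 to 371 bp, chosen for comparison after the counts were seen, which held 3844 sites against 2350 at 354 to 362 bp and 1915 at 372 to 380 bp. The most common width after 200 bp was 370 bp, with 620 sites.

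**Figure D1:**
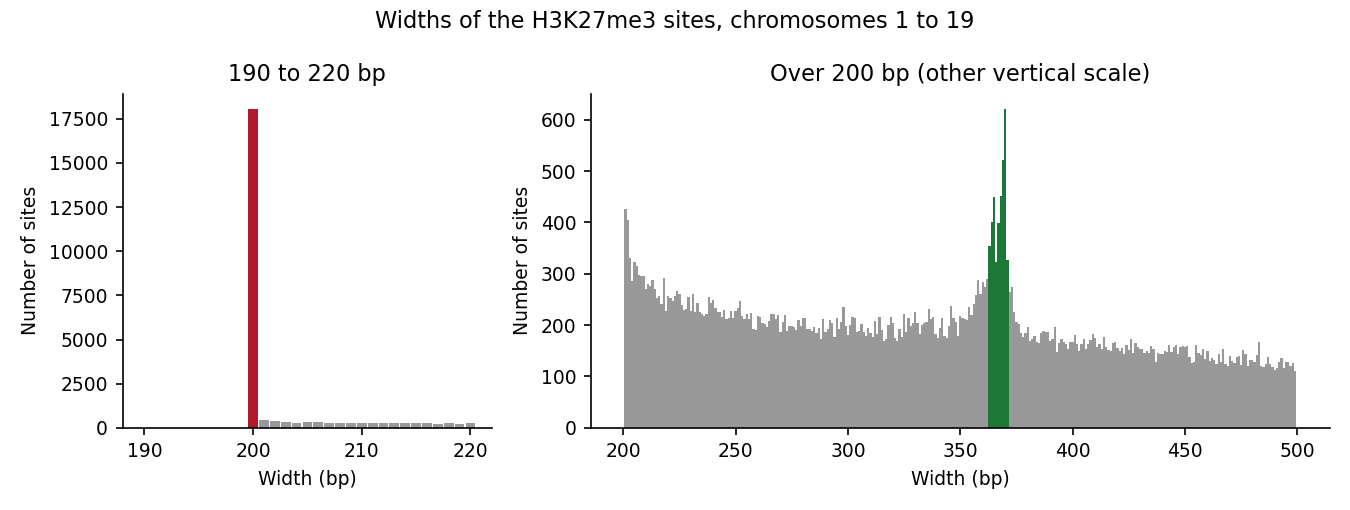
Number of autosomal H3K27me3 sites (vertical axis) at each width in bp (horizontal axis), for 190 to 220 bp on the left and for widths over 200 bp on a smaller vertical scale on the right. The red bar at 200 bp holds 18032 sites against 427 that were 1 bp wider, and the green bars mark the pile at 363 to 371 bp, which holds 3844 sites.

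The 200 bp sites had sparser surroundings than wider sites. The median gap to the nearest other site was 1234 bp (quartiles 415 and 6561 bp), compared with 794 bp for the next wider class (over 200 and under 300 bp), 564 bp for sites from 300 bp to under 1 kb and 351 bp for sites of 1 kb or more. Stretches of 200 bp that touched no site, here site-free tiles, cut end to end over all autosomal bases, lay a median 25871 bp from a site. Members were thus far closer to other sites than the unmarked genome was, and farther from them than these 3 wider classes. Within the wider sites, the pile at 363 to 371 bp had a longer median gap than members, 5635 bp.

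**Figure D2:**
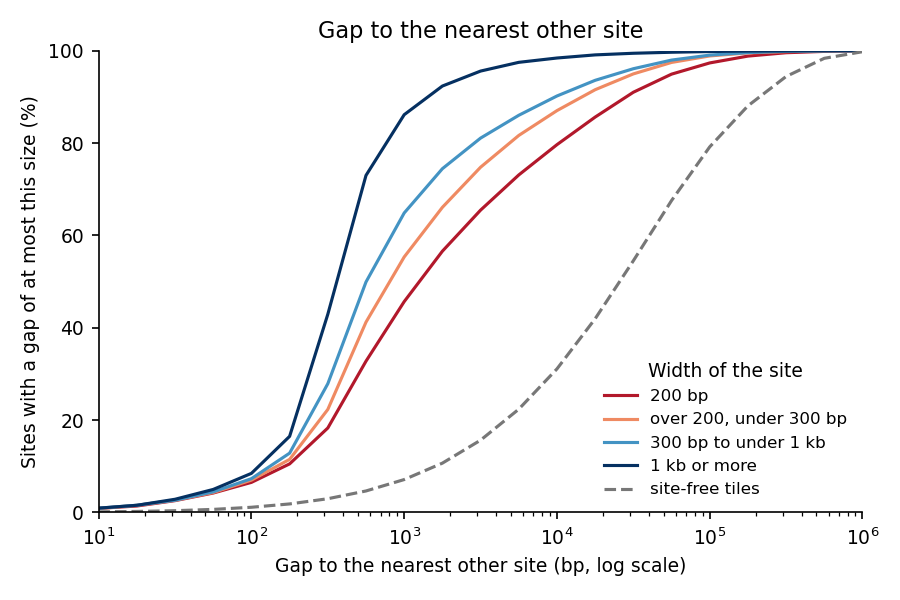
Share of sites (vertical axis, %) whose nearest other site lies within a given gap (horizontal axis, bp, log scale), by width of the site, with site-free 200 bp tiles as a dashed line. At gaps of 100 bp and more the curve of the 200 bp sites runs below those of the wider classes, with a median of 1234 bp against 794 bp for the next wider class. It runs above that of the tiles, whose median is 25871 bp.

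The nearest other site of a member was itself usually narrow. Its median width was 380 bp (quartiles 242 and 681 bp), against 419 bp for the next wider class and 748 bp for sites of 1 kb or more. Another 200 bp site was the nearest neighbour of 16.1% of members, although such sites made up 12.4% of the list. Sites of the next wider class were nearest to 18.5% of members and formed 15.9% of all sites. Sites of 1 kb or more were nearest to 15.4% of members and formed 23.9% of all sites. The median distance from a member to a site of at least 1 kb was 14308 bp, compared with 7741 bp for the next wider class.

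Flanking a wide domain was the situation of a minority. A site of 1 kb or more lay within 1 kb of 2370 members (13.1%, 12.7 to 13.6%). The same was true of 18.5% of the next wider class, 25.1% of sites from 300 bp to under 1 kb, 49.1% of sites of 1 kb or more and 1.53% of site-free tiles. Among members, 11.1% had such a neighbour next to them on 1 side only and 1.00% on both sides, so 181 sat between wide sites. The wide site beside a member had a median width of 1837 bp, close to the 1958 bp of all wide sites, and the gap between them had a median of 426 bp. It was 5 kb or wider for 11.6% of these members, whereas 14.4% of all wide sites reached 5 kb.

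Around members the covered share of the genome rose over the first 1 kb and then changed little. In the first 250 bp beyond their edges, 3.99% of bases belonged to another site, in the fourth 250 bp 17.2% did, and in the last 250 bp before 10 kb 16.5% did. Bases of sites of at least 1 kb rose from 0.842% in the first 250 bp to 10.9% at 10 kb, compared with 1.02% and 14.0% around the next wider class and with 0.154% and 2.20% around site-free tiles. At 10 kb the surroundings of members thus held more wide sites than those of unmarked stretches.

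Members that stood alone were counted at 10 kb, and their order against those flanking wide sites depends on the distances chosen, since 21.2% had a wide site within 2 kb and 13.2% had no other site within 20 kb. No other site lay within 10 kb of 3668 members (20.3%, 19.8 to 20.9%), compared with 13.0% of the next wider class, 9.80% of sites from 300 bp to under 1 kb, 1.57% of sites of 1 kb or more and 68.9% of site-free tiles. The pile at 363 to 371 bp exceeded the members, with 41.0%. No other site lay within 50 kb of 5.84% of members or within 100 kb of 2.64%, and 22.9% had no site of at least 1 kb within 100 kb. The remaining members were intermediate, as 32.5% had a site within 1 kb but none of at least 1 kb, and 34.0% had their nearest site at 1 to 10 kb.

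When sites no more than 1 kb apart were joined into chains, 54.3% of members were in no chain, 32.3% formed the end of one and 13.3% lay inside one. In chains of 3 or more sites, 52.7% of members were at an end, against 43.2% of all sites. Joining members with gaps of at most 10 kb and no wider site between them left 14971 on their own, 1287 pairs, 138 runs of 3, 17 of 4 and 1 of 5. Any wider site broke such a run and members were 12.4% of sites, so these counts do not measure clustering. The run of 5 spanned chr7:36489358-36494281 with no protein-coding gene, and the centre of the run was 206298 bp from Tshz3, which encodes a zinc finger homeobox factor. Of the 17 tied runs of 4 members, 2 are named. They spanned chr12:21064070-21066326 in Asap2, an ARF GTPase-activating protein gene, and chr12:3210961-3213519, 35.2 kb from Rab10, which encodes a small GTPase of vesicle transport.

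The share of narrow sites fell with the local coverage of the mark. This order is partly fixed by construction, since the covered bases are the summed widths of the same sites. In 1 Mb windows with under 1% of bases covered by sites, 25.7% of sites were 200 bp wide, and this share was 19.5% at 1 to 2% covered, 16.6% at 2 to 5%, 13.1% at 5 to 10%, 10.7% at 10 to 20% and 8.13% at 20% or more. The number per Mb rose from 2.04 in the poorest windows to 13.9 at 10 to 20% covered, and was 13.6 in the richest. In the poorest windows 64.4% of members stood alone, against 6.65% in the richest. The 3 windows with the most members held 39 each. They were the window of chromosome 12 from 103 Mb with the Serpina protease inhibitor cluster, that of chromosome 3 from 153 Mb with St6galnac3, and that of chromosome 9 from 30 Mb with the metalloprotease genes Adamts8 and Adamts15. Of 2403 windows 217 had none.

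Over the 19 autosomes the share of sites at 200 bp ranged from 10.7% on chromosome 15 to 15.4% on chromosome 3, with a median of 12.3%. Their number per Mb ranged from 5.14 on chromosome 10 to 10.2 on chromosome 11. In all 19 autosomes members flanked a wide site less often and stood alone more often than the next wider class.

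The base content of members was narrow in range. Their GC content averaged 47.6% (SD 5.14 over sites, n = 18032), compared with 41.9% (SD 7.92) in all 200 bp tiles of the autosomes and 49.0% (SD 4.75) in the central 200 bp of the next wider class. Between 40 and 55% GC lay 88.6% of members and 55.8% of tiles. Mean GC was above that of the tiles and below that of the next wider class on 19 of 19 autosomes. Members that stood alone averaged 45.8%, those beside a wide site 48.2%, and the pile at 363 to 371 bp 45.7%.

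The GC of members peaked at the site, and their far flanks also exceeded the 41.9% of tiles. Within 100 bp of the centre it averaged 47.6%, at 200 to 500 bp it was 43.0%, and at 1.5 to 2 kb it was 43.7%. Around members that stood alone the far flanks had 41.8% GC and the centre 45.8%. The centre exceeded the far flanks by 3.90 percentage points for members, 4.77 points for the next wider class, 3.19 points for sites from 300 bp to under 1 kb and 1.74 points for the pile at 363 to 371 bp.

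**Figure D3:**
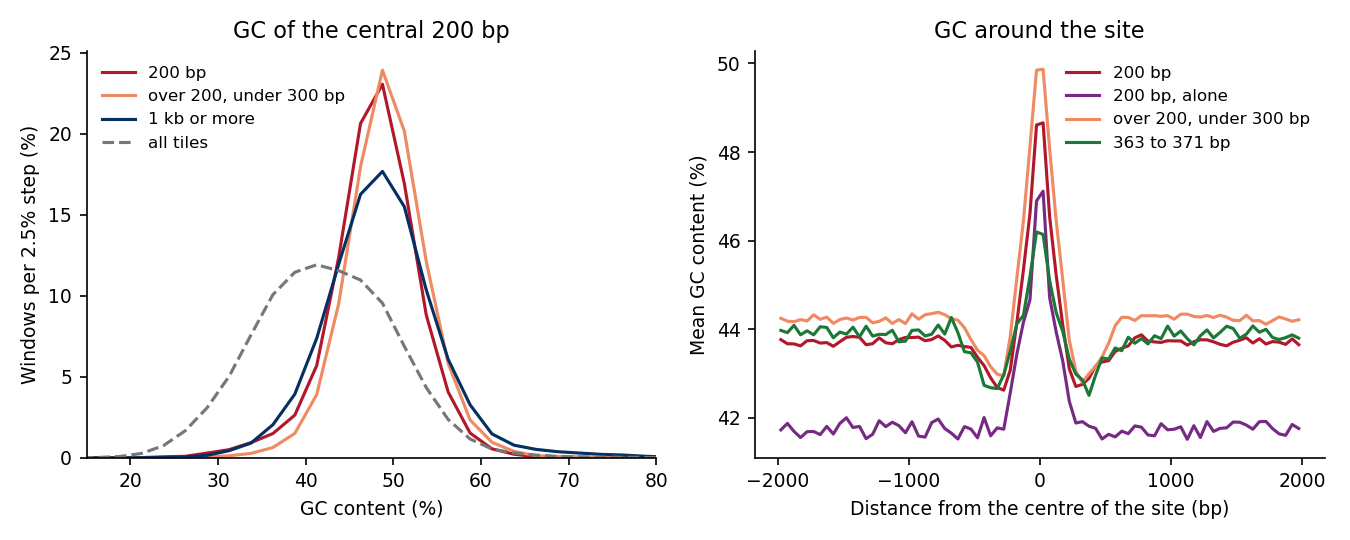
Left, distribution of the GC content (horizontal axis, %) of the central 200 bp of sites by width and of all 200 bp autosomal tiles (dashed), as the share of windows per 2.5% step. Right, mean GC content (vertical axis, %) by distance from the site centre in bp. Members lie at 47.6% on average against 41.9% for tiles, and their GC falls to 43.0% at 200 to 500 bp from the centre.

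Members held few CG dinucleotides for their base content, as did tiles, but more than tiles in number. They held 2.24 CG dinucleotides on average against 1.69 in tiles, which at their base content came to 0.20 of the number expected from C and G, against 0.19 in tiles. No CG was present in 17.5% of members and in 30.0% of tiles, and 10 or more in 0.677% and 1.02%. Repeat-masked bases made up 23.2% of members, 33.5% of tiles and 35.3% of the pile at 363 to 371 bp.

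Short motifs were searched on both strands of each 200 bp window, with overlapping matches allowed, and the share of members with a match was set beside that of all tiles. The CA repeat CACACACA occurred in 4.77% of members and 6.23% of tiles, and the GA repeat GAGAGAGA in 3.48% and 3.56%. A run of A, searched as AAAAAAAA, occurred in 5.44% of members, 3.46% of the next wider class and 8.35% of tiles. Among members that stood alone this run reached 10.7%, near the 10.3% of the pile at 363 to 371 bp, while beside wide sites it was 3.97%. These groups differed in base content. Under 40% GC lay 15.1% of lone members, 17.5% of the pile and 2.95% of members beside wide sites. The AP-1 motif TGANTCA occurred in 5.76% of members and 5.96% of tiles, the TEAD motif GGAATG in 11.7% and 10.8%, and the YY1 motif GCCATNTT in 3.89% and 4.36%. TTCAGCACC, part of the binding motif of the neuronal repressor REST, was rare in both, with 0.349% of members (0.273 to 0.447%) and 0.188% of tiles. In windows of 45 to 50% GC the CA repeat occurred in 4.50% of members and 7.14% of tiles, the GA repeat in 3.61% and 4.85%, the YY1 motif in 3.87% and 5.26% and the REST part in 0.292% (0.198 to 0.431%) and 0.243%. The run of A differed less there, with 3.32% of members, 2.59% of the next wider class and 3.93% of tiles.

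Relative to genes, the shares of members between and within genes were near those of the genome, and their share in exons was higher. Their centres were intergenic in 52.1% and intronic in 39.3% of cases, against 51.6% and 43.3% of tiles, but exonic in 8.61% against 5.10%. Most of the excess was in coding sequence, which held the centres of 870 members (4.82%, 4.52 to 5.15%) and 1.46% of tiles. Wider sites showed it too. The next wider class had 10.1% in exons and 6.11% in coding sequence. Sites from 300 bp to under 1 kb had 8.51% and 4.25%, and sites of 1 kb or more 8.65% and 3.54%. Untranslated parts of exons held 1.36% of members and 1.62% of tiles, and exons of pseudogenes 0.810% and 0.366%.

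Coding sequence was most frequent among members that stood alone. It held the centres of 340 of these (9.27%, 8.37 to 10.3%) but of only 40 of the 2370 members beside a wide site (1.69%, 1.24 to 2.29%). Sites of the next wider class that stood alone reached 14.5%, so the pattern was not particular to 200 bp. Because coding sequence is rich in GC, the shares were also compared within steps of GC content. At 45 to 50% GC, 8.46% of lone members, 3.52% of all members and 1.30% of tiles were centred in coding sequence. At 50 to 55% GC the shares were 15.8%, 6.14% and 2.68%. Below 40% GC the numbers were small, with 6 of 334 lone members at 35 to 40% GC.

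**Figure D4:**
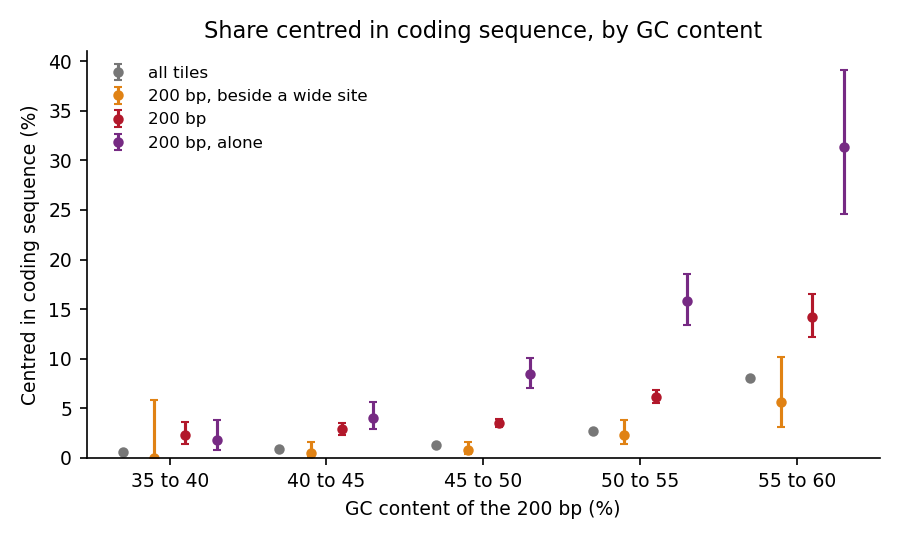
Share of 200 bp sites centred in coding sequence (vertical axis, %) within steps of their GC content (horizontal axis, %), for all members, for members that stood alone, for members beside a wide site and for all autosomal tiles. Bars are Wilson 95% intervals that cover counting only, and at 50 to 55% GC the lone members lie at 15.8% against 2.68% for tiles.

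The 340 lone members in coding sequence held a median 184.5 coding bases out of 200, and the coding block around their centre had a median length of 217 bp. They fell in 341 protein-coding genes, counting overlapping genes, and no gene held more than 2. The 12 genes with 2 included Dst, Hmcn1 and Herc2, large genes for a cytoskeletal linker, an extracellular matrix protein and a ubiquitin ligase, and also Sp1, a zinc finger transcription factor. Of the 340, 63 lay within 1 kb of a protein-coding transcript start, as did 176 of all 870 members centred in coding sequence. Without the limit to coding sequence, 139 of all 3668 lone members did (3.79%), and 3.93% of tiles. No share was taken for coding tiles.

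Members were not concentrated at transcript starts. Within 1 kb of an annotated start lay 6.41% of members (6.06 to 6.77%) and 6.28% of tiles, while sites of 1 kb or more reached 12.2%. For protein-coding starts alone the share of members was below that of tiles, 3.44% (3.18 to 3.71%) against 3.93%. More than 50 kb from any start lay 15.9% of members and 22.1% of tiles. Around the starts of 9512 genes with a CpG-rich promoter, members became rarer, with 2.10 per Mb within 500 bp of the start against 8.57 per Mb at 4 to 5 kb, and the next wider class did so too, with 2.63 against 10.8 per Mb. Around the other 11295 promoters the values were 9.21 and 10.7 per Mb for members, from 104 and 241 sites. For the next wider class they were 14.9 and 13.3 per Mb. Sites of 1 kb or more covered more bases near the start at both kinds of promoter. At CpG-rich promoters they covered 13.0% of bases within 500 bp against 8.98% at 4 to 5 kb, and at the others 16.0% against 10.1%.

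**Figure D5:**
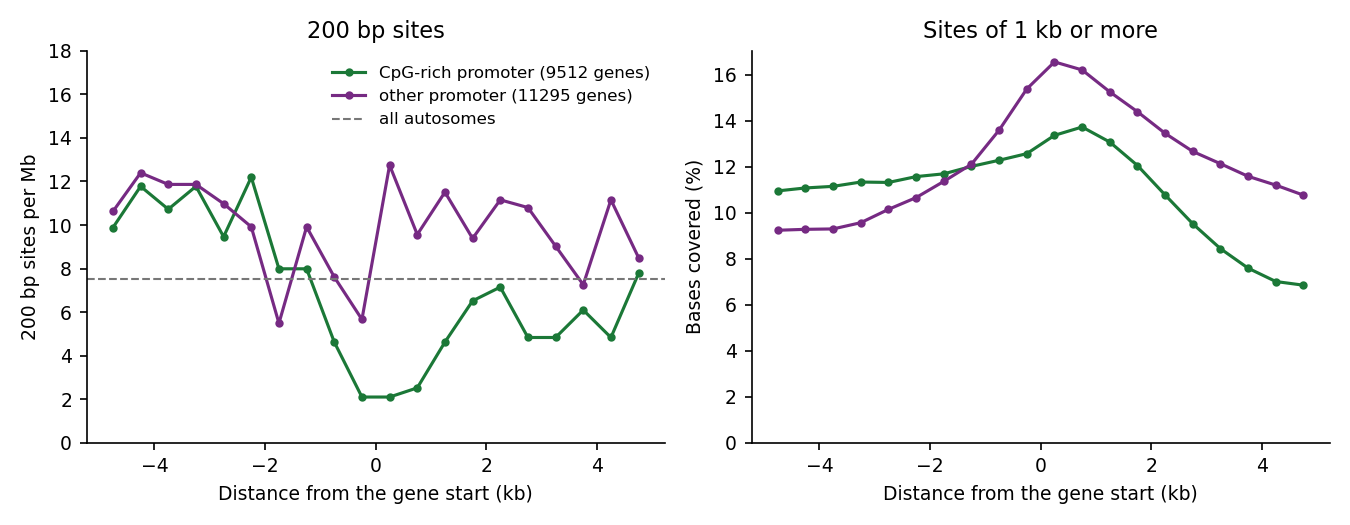
Left, number of 200 bp sites per Mb (vertical axis) by distance from the gene start in kb, for genes with CpG-rich promoters and other genes, with the mean over all autosomes dashed. Right, share of bases covered by sites of 1 kb or more. At CpG-rich promoters members fall to 2.10 per Mb within 500 bp while wide sites cover 13.0% of bases there.

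A member overlapped the 1 kb on either side of a transcript start of 664 of 20807 autosomal protein-coding genes (3.19%, 2.96 to 3.44%). Of these genes 275 had no wider site at the promoter, 177 had wider sites that were all under 1 kb, and 212 also had a site of at least 1 kb. CpG-rich promoters had a member in 2.47% of cases and other promoters in 3.80%. There were 29 genes with 2 or more members at the promoter. The promoters of Nrxn3, a presynaptic adhesion gene, Slc26a5, which encodes prestin of the outer hair cell, and Xrra1 held 3 members each. Ttn and Myrip were among those with 2.

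Only 126 members (0.699%) lay over a protein-coding transcript start. The 10 with the most CG for their base content belonged to Zbtb8a, Tardbp, Cped1, Traf3ip3, Rnf43, Trpc7, Plch1, Pbx2, Epha7 and Tnik, with 0.71 of the expected number in Zbtb8a and 0.59 in Tnik. All 10 were centred in exons, and 7 in coding sequence. Several of these starts belonged to transcripts that began inside the gene. The start at the Tnik site lay 386813 bp from the gene's own start, that of Plch1, a phospholipase C gene, 197429 bp, and that of Epha7, an ephrin receptor gene, 58710 bp. At Tardbp, which encodes the RNA-binding protein TDP-43, it lay 1657 bp inside. The Zbtb8a site covered the gene's own start, and its widest promoter site was 262 bp. For Cped1 and Epha7 the 200 bp site was the only site at the promoter.

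Among developmental regulators (homeobox genes of the Hox, Nkx and Lhx families, Pax, Sox, Fox, Gata and Tbx factors, and Wnt ligands), 5 of 165 had a member at the promoter (3.03%), near the 3.19% of all protein-coding genes. By contrast, 107 of the 165 (64.8%) had a site of at least 1 kb there, against 20.3% of all genes. The 5 were Foxp1, Tbx15, Sox30 and Pax9, which encode transcription factors, and Wnt9a, which encodes a secreted ligand, and none of them had a wider site there. Foxp1 held 5 members among 7 sites in its 597 kb. Ribosomal protein genes, which are active in all cells, had a member in 1 of 88, Rpl17 on chromosome 18, and a site of at least 1 kb in 4. The 10 fibroblast markers examined for the labelled cell type (Col1a1, Col1a2, Col3a1, Vim, Thy1, Pdgfra, Pdgfrb, S100a4, Twist1 and Prrx1) had no member at the promoter, and 4 had any site, the widest being 534 bp at Prrx1. The list holds no expression values, so their activity was not measured.

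Other families varied around the average. Members were at the promoter of 32 of 1128 olfactory receptor genes (2.84%), 3 of 327 vomeronasal receptor genes (0.917%), 5 of 385 zinc finger genes (1.30%), 2 of 43 collagen genes, 3 of 92 potassium channel genes, 3 of 95 cadherin genes and 5 of 65 axon guidance genes (7.69%, 3.33 to 16.8%). Potassium channel genes had a site of at least 1 kb at 80.4% of promoters. Each of their 3 promoters with a member also had a wider site, while none of the 3 vomeronasal promoters did.

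Inside genes, 7066 members (39.2%) were centred in a protein-coding gene, against 41.3% of tiles, and 3504 genes had at least 1. The highest counts were in very long genes. Tenm2, which encodes the adhesion protein teneurin 2, held 34 members among 239 sites over 1229 kb, all 34 in introns. Asic2, an acid-sensing ion channel gene, held 27, the postsynaptic scaffold gene Dlgap1 26, and the sialyltransferase gene St6galnac3 25. Dab1, an adaptor of reelin signalling, and Opcml, a neural adhesion gene, held 24 each, the splicing factor gene Rbfox1 23 and the receptor tyrosine kinase gene Alk 22. In Rbfox1 members made up 26.1% of 88 sites, and sites covered 2.66% of the gene, while in St6galnac3 they made up 16.4% of 152 sites with 22.8% covered. Fgfr2 and Gm20388 counted 53 and 27 members over annotated spans of 2961 and 4435 kb. RefSeq gives Fgfr2 104 kb, in which 2 members lay, so these 2 counts belong to long annotated spans that include other genes.

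Per length, among genes of at least 100 kb, the adrenergic receptor gene Adra1a had the most, with 12 members or 8.83 per 100 kb. It was followed by Serpina1b with 7.83, the glucagon-like peptide 2 receptor gene Glp2r with 7.30, the protein kinase C gene Prkcq with 6.97 and the Ras exchange factor gene Rasgrf1 with 6.83. Serpina1b spans 102 kb here but 10.0 kb in RefSeq, where it held no member. In Adra1a, Glp2r, Prkcq and Rasgrf1 sites covered 34.6%, 48.8%, 49.5% and 44.8% of the gene, and the median gap from a member to the nearest site was between 302 and 470 bp. Members of these 4 genes thus lay among dense sites, unlike those of Foxp1, whose median gap was 50835 bp.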

How the data were processed

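H3K27me3 ChIP-seq libraries of iMEF cells (12) and 2 inputs were described by the deposited list of sites. The authors used Trim Galore for trimming, BWA for alignment to mm10 (GRCm38.p6), SAMtools for filtering, Picard to merge replicates and MACS2 for broad peaks. The submitters' processing notes also name deepTools and DESeq2. Versions, the call threshold, the rule that joined peaks over samples and whether single or merged libraries entered the calls are not given in the sources used here. The deposited values are other than counts or signal: positions in bp, without normalization or score, taken from their smallest difference to have starts counted from 0 and ends left out, which are printed here with starts counted from 1.

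Sites exactly 200 bp wide on chromosomes 1 to 19 were taken as members. The members, gene lists and motifs were chosen with earlier results of these data known. Gaps, widths of neighbours and base content were computed with Python 3.11.15, NumPy 2.4.6 and pandas 2.3.3, and Wilson 95% intervals with SciPy 1.17.1. The functions were checked on simulated data. Base content used the central 200 bp of a site, and the background was all 11979192 autosomal 200 bp tiles without N, of which 11060757 touched no site. Genes came from GENCODE M21, earlier than the release of the study. A wide site has at least 1 kb, near means a gap of at most 1 kb, and alone means no other site within 10 kb. A promoter is 1 kb on either side of any transcript start of a protein-coding gene, and it is CpG-rich with GC of at least 50% and at least 0.6 of the expected CG within 500 bp of the gene start. Named items were the 3 most isolated members, 3 of the longest runs, 3 densest 1 Mb windows, genes with the most members in the gene, per 100 kb and at the promoter, the 10 members over transcript starts with the most CG, and members of the lists without a wider promoter site. Not all items with tied counts were named. Sequences overlapping a UTR or on chromosome 18 were not printed. 1 further sequence is not reported here. As 1 list without values per library was used, no test was run and read depth is unknown. Alternatives were other widths, chromosomes, distances and gene windows.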

Additional observations from a re-analysis of the deposited data

Results flagged for a closer look

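Sites of exactly 200 bp also occurred outside the autosomes, in entries that the report does not use. Chromosome X held 1389 of them among 8965 sites (15.5%), the Y chromosome 5 among 10, and 23 other sequences of the assembly 16 among 105. With no read counts per library, these entries were not compared with the input libraries. No group of 4 to 10 samples with values was at hand, and single samples were not examined.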

How the results depend on the processing

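With widths of 200 to 210 bp, the share near a wide site was 13.7% against 13.1%. With chromosome X, mean GC was 47.5% against 47.6%. Other settings changed what is counted. Taking the nearest site wider than 200 bp gave a median gap of 1506 bp and a median neighbour of 440 bp. The share near a wide site was 7.79% within 500 bp, 21.2% within 2 kb and 34.0% within 5 kb, and 26.0%, 6.15% and 1.67% for wide sites of at least 500 bp, 2 kb and 5 kb. The share alone was 28.4% at 5 kb, 13.2% at 20 kb and 5.84% at 50 kb, and 55.6% had no site of at least 1 kb within 10 kb. Mean GC was 45.8% in members that stood alone and 48.2% beside wide sites. Starts of protein-coding genes alone gave 3.44% within 1 kb, and any overlap 6.97%. Promoters of 500 bp and 2 kb on either side gave 391 and 1150 genes, and 2 kb gave 8 developmental genes. Added after seeing the data, any coding base gave 6.94% and members of 45 to 50% GC 3.52%. Of 45 alternatives 22 stayed within the counting interval of the reported value (or within 1.5 times it for counts). No paired analysis was possible because no site has a value for any library. Read depth is unknown, so whether a 200 bp site is a weak or a short enrichment could not be seen.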
